A study of Mus musculus with 30 samples.

Results

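Gene expression in adipose tissue macrophages (ATMs) was compared with that in bone marrow (BM) of the same kind of mouse, the lean WT recipient. The 6 libraries are ATM_WT 1 to 3 and BM_WT 1 to 3, out of 30 libraries in the series, and the comparison covers the 13076 gene symbols that occur in both count tables, out of 17336 symbols in either. WT recipients were wild-type mice of the C57BL/6J background, 12 to 14 weeks old, which received 700 cGy and then 400 cGy of irradiation. They were given CD45.2+ marrow cells of Shp2E76K/+;LysM-Cre+ mice, mixed 1:1 with CD45.1+ Boy/J cells, with 8 weeks given as the time after transplantation. The Shp2E76K allele is an activating mutation of the phosphatase SHP2 that LysM-Cre switches on in myeloid cells, so that by this protocol WT and obese groups of both tissues would carry it in part of their blood cells. The labels do not give the donor of each sample, and 1 legend of the study speaks of wild-type donor cells for its comparison group, so the donor of the WT libraries is not settled here. ATMs were F4/80+ cells sorted from visceral fat, whereas no sort is stated for the marrow cells. A single further contrast used the Vehicle groups of both tissues, which are Ob/Ob recipients (mice without functional leptin) given vehicle for 30 days. Each group is stated to hold 3 mice as biological replicates.

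Macrophages of fat clear dying adipocytes, take up and hand on lipid and iron, present antigen on MHC class II and send chemokines to other leukocytes. Many settle in the tissue before birth and renew there, with markers such as LYVE1, FOLR2 and TIM4, while others arrive as monocytes from the marrow. Marrow is the site where neutrophils, red cells, platelets and B cells are made, and its cells divide quickly. In a bulk sample, fewer cells of a type and less RNA per cell cannot be told apart.

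The ATM_WT libraries held 24876074 to 28369275 counts and the BM_WT libraries 31777997 to 39925495. In ATM_WT 8.5% to 8.8%, and in BM_WT 14.2% to 16%, of all counts fell on the top 10 genes. Replicates differed by more than counting error in each pair, and the biological coefficient of variation was 16.8% in ATM_WT and 5.98% in BM_WT. BM_WT replicate 1 stood apart in the 45S ribosomal RNA precursor Rn45s, at 20477, 6697 and 7662 CPM in the BM libraries, and in Lars2 at 1121, 359.9 and 410.4 CPM. CPM are counts scaled to a common library size throughout, and log2 fold changes are ATM minus BM, with standard errors. The log2 fold change of Rn45s, -3.47 ± 0.55, was -2.78 without that library, and that of Lars2, 4.26 ± 0.59, was 4.97. Without BM_WT replicate 1, 3476 genes were called higher in ATM libraries and 3046 higher in BM libraries.

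The 2 tissues differed in 6576 of 12996 genes tested, which is 50.6% of them, at a false discovery rate below 0.05 and an absolute log2 fold change above 1 in edgeR's quasi-likelihood test. Of these, 3468 genes (26.7%) were higher in ATM libraries and 3108 (23.9%) higher in BM libraries. The 3 libraries of one tissue did not overlap with those of the other for 10873 genes, or 83.7%. Each count of a gene group below is read against these shares. The median log2 fold change of all genes tested was -0.01. Scaling by library totals alone moved it by 0.14 and turned the split to 3787 higher in ATM and 2752 higher in BM libraries.

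Macrophage genes were higher in the sorted cells. Adgre1 (chr17:57358691-57483527, GRCm38), which encodes F4/80, the antigen of the sort, lay at 218, 228 and 258 CPM in the ATM libraries and at 41.3, 45.8 and 44.2 CPM in the BM libraries. Its log2 fold change was 2.42 ± 0.08 (adjusted p = 3.8e-10, edgeR). Csf1r, the receptor for the growth factor on which macrophages depend, lay at 601, 626 and 621 CPM in the ATM and 141, 149.7 and 151 CPM in the BM libraries. The ATM libraries were the higher ones for both genes, with no overlap. Of 16 macrophage genes shared with most tissues, 11 were called higher in ATM and 2 higher in BM libraries, with a median log2 fold change of 2.11. Examples were the lysosomal protein Cd68 (1.93 ± 0.07), the complement subunits C1qb (3.36 ± 0.06) and C1qc (3.13 ± 0.06), and Axl, a receptor for dying cells (3.51 ± 0.06). The members that were higher in BM libraries were Lyz2 and Itgam. Lyz2, lysozyme and the gene whose locus drives the LysM-Cre, lay at 2339, 2447 and 2479 CPM in ATM and 13588, 13775 and 13861 CPM in BM libraries. Itgam (CD11b) differed by -2.63 ± 0.06, and 68.7% of its annotated exon length lies in other gene models too. Neutrophils and monocytes of the marrow also express Lyz2 and Itgam.

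**Figure D1:**
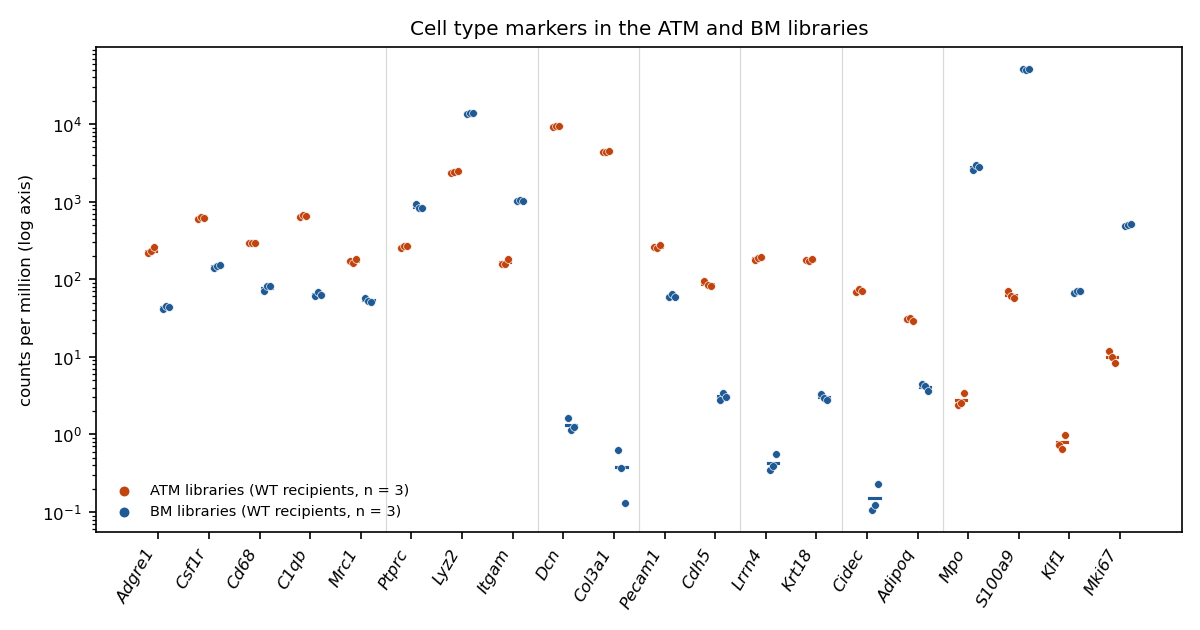
CPM on a log axis in each of the 3 ATM and 3 BM libraries of WT recipients (points), with the group mean as a bar, for 20 marker genes. From left to right these are macrophage, other leukocyte, stromal, endothelial, mesothelial, adipocyte and marrow genes. Adgre1, Csf1r and Cd68 are higher in the ATM libraries, as are Dcn, Cdh5 and Lrrn4, while Ptprc, Lyz2, Mpo and Mki67 are higher in the BM libraries.

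The ATM libraries also held RNA of cells other than macrophages. Ptprc, which encodes the pan-leukocyte antigen CD45, lay at 254, 264 and 269.7 CPM in the ATM libraries and 921, 823 and 827 CPM in the BM libraries, a log2 fold change of -1.71 ± 0.05. Dcn, the fibroblast proteoglycan decorin, lay at 9103, 9344 and 9516 CPM in the ATM libraries and at 1.62, 1.13 and 1.25 CPM in the BM libraries. Of 13 tested genes of adipose stroma 12 were higher in ATM libraries, none was higher in BM libraries, and the median was 8.17. The summed level of these 13 genes was 32988 to 34161 CPM in the ATM libraries and 655 to 688 CPM in the BM libraries, and none of its 13 members was at 0 in the ATM libraries. The summed level of the macrophage list was 6357 to 6663 CPM in the ATM libraries and 15208 to 15522 CPM in the BM libraries, of which Lyz2 took the most. All 13 tested endothelial genes were higher in ATM libraries (median 5.84, summed level 1387 to 1439 CPM against 98.1 to 110 CPM), among them Pecam1 (2.13 ± 0.06), Kdr (5.84 ± 0.14) and Esam (7.53 ± 0.10). The 4 tested mesothelial genes were higher as well, with Lrrn4 at 8.76 ± 0.12, and 6 more, such as Upk3b (676 CPM) and Msln (199.98 CPM), occurred in the ATM table alone. The sum over the 4 tested genes was 802 to 862 CPM in ATM libraries and 58.7 to 63.2 CPM in BM libraries. Of 8 tested adipocyte genes 6 were higher in ATM libraries, with Cidec, a lipid droplet protein, at 8.87 ± 0.18 and Adipoq (adiponectin) at 2.87 ± 0.14. The 8 genes summed to 432 to 441 CPM in ATM and 169 to 172 CPM in BM libraries. The ATM table alone held 7 further adipocyte genes, at low means in ATM_WT from 0.514 CPM (Cidea) to 32.6 CPM (Thrsp). Plin1 (5.35 CPM) and Lep (8.15 CPM) were among them.

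Genes of the male reproductive tract, which adjoins part of the visceral fat of male mice, were present as well. Akr1b7 (chr6:34412334-34423142, GRCm38), an aldo-keto reductase known from vas deferens and adrenal gland, had the highest CPM in the ATM libraries of all symbols in both tables, at 14492, 14612 and 14672 CPM against 1.62, 1.49 and 1.09 CPM in the BM libraries. Of 15 genes of epididymis and seminal vesicle 12 were in the ATM table alone, led by Crisp1, an epididymal secretory protein, with a mean of 3405 CPM. The summed level of the list was 3404 to 3559 CPM in the ATM libraries, most of it from Crisp1. Next came Pate4 (20.5 CPM) and Adam7 (19 CPM), while the seminal vesicle genes Svs2, Svs4 and Svs5 had means of 0.548, 0.0763 and 0.79 CPM. The ATM table also covers the other recipient groups, so a symbol can be in it with few counts in ATM_WT. Pancreatic enzyme genes summed to 82.5 to 87.9 CPM in ATM libraries and 23.5 to 25 CPM in BM libraries. Most of the ATM sum came from Pnliprp1, in the ATM table alone, with a mean of 72.3 CPM. Of 16 members 11 were in the ATM table alone, and 4 had no count in any ATM_WT library. Of 3 tested 1 was called, Cela1, higher in BM libraries (-1.03 ± 0.17). This call was lost under upper-quartile or total-count scaling and without ATM_WT replicate 1 (-0.86). The part that RNA of other cell types has in the tissue differences described here was not tested.

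Genes of resident macrophages were mostly higher in ATM libraries. Of 19 members 17 (against 26.7% of all genes) were higher in ATM libraries and 1 higher in BM libraries, with a median of 2.68. Folr2, a folate receptor of resident macrophages, lay at 269.7, 267 and 289 CPM in the ATM libraries and 4.74, 4.84 and 4.84 CPM in the BM libraries. Its 2 groups were far apart, with a log2 fold change of 5.84 ± 0.07, although 63.1% of its exon length is shared with another gene. Gas6, the bridging ligand of the AXL and MERTK receptors, lay at 855, 823 and 863 CPM and 10.2, 11.5 and 10.9 CPM in ATM and BM libraries (6.28 ± 0.06). The mannose receptor Mrc1 (CD206) lay at 171, 162 and 184 CPM and 58.2, 52.02 and 50.3 CPM in ATM and BM libraries (1.69 ± 0.08). Sepp1, a selenium carrier, and Igf1 differed by 2.68 ± 0.06 and 4.76 ± 0.11. Cd5l, a secreted protein of macrophages in liver, spleen and marrow, went the other way, at 5.36, 6.39 and 6.08 CPM in ATM and 53.2, 49.5 and 49.2 CPM in BM libraries. F13a1, the coagulation factor XIII subunit, passed the false discovery rate but not the fold-change limit (0.77 ± 0.05). Endothelial or stromal cells also express several members, among them Lyve1, Gas6, Igf1, Stab1 and Ednrb.

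Of 16 genes of lipid-associated macrophages, which accumulate around dying adipocytes, 10 were higher in ATM libraries and none higher in BM libraries (median 1.77). Apoe, the apolipoprotein of cholesterol efflux, lay at 2908, 2964 and 2969 CPM in ATM libraries and 333, 356 and 351 CPM in BM libraries, 3.09 ± 0.04. The fatty acid translocase Cd36 (4.996 ± 0.09) and the fatty acid carrier Fabp4 (5.40 ± 0.06), which adipocytes and capillaries express too, differed more. The lipid receptor Trem2, which defines this state, lay at 52.7, 53.4 and 50.5 CPM and 14.4, 15.6 and 14.3 CPM in ATM and BM libraries (1.82 ± 0.09). Members that were not called included Lgals3, Cd9, Cd63 and Spp1, all between -0.37 and 0.55 on the log2 scale.

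Of 24 lysosomal genes 13 were higher in ATM libraries and 1 higher in BM libraries, with a median of 1.12. The cathepsins Ctsb (2.01 ± 0.05) and Ctsd (1.05 ± 0.04) and the membrane protein Lamp1 (1.51 ± 0.04) were higher in ATM libraries. Tfeb, a transcription factor for lysosomal genes, was higher in BM libraries, at 23.8, 23.1 and 24 CPM in ATM libraries and 58.5, 62.2 and 58.3 CPM in BM libraries. Psap, the saposin precursor, was not called at 0.89 ± 0.04.

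Complement proteins tag debris and microbes for uptake by macrophages. Of 15 tested complement genes 13 were higher in ATM libraries, none was higher in BM libraries, and the median was 5.79. C3, the central component, lay at 6682, 6703 and 6572 CPM in the ATM libraries and 739.8, 801 and 786 CPM in the BM libraries (3.10 ± 0.04). The initiating protease C1s1 (9.90 ± 0.07) and its inhibitor Serping1 (8.55 ± 0.10) had lower levels still in marrow, at 1.03, 1.13 and 1.15 CPM and 5.16, 5.91 and 7.11 CPM. Factor B (Cfb) differed by 7.51 ± 0.09, and 79.5% of its annotated exon length lies in other gene models too. C5ar1, the receptor for C5a, was not called (-0.00 ± 0.06), with 169.9, 158 and 185 CPM in ATM and 169.9, 172 and 171 CPM in BM libraries. Stromal cells and mesothelium also make complement proteins.

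Of 13 genes of MHC class II presentation 7 were higher in ATM libraries and 1 higher in BM libraries, with a median of 1.33. Cd74, the invariant chain, lay at 7448, 7670 and 7849 CPM in ATM and 833, 931 and 927 CPM in BM libraries, 3.09 ± 0.05. The chains H2-Ab1 (2.79 ± 0.05), H2-Eb1 (1.99 ± 0.04) and H2-Aa (1.93 ± 0.04) followed. Ciita, the transactivator of these genes, was not called (0.02 ± 0.15), with 22.8, 33.5 and 24.6 CPM in ATM and 24.8, 27.1 and 28.2 CPM in BM libraries. H2-Ob, a chain of the peptide-loading regulator H2-O that B cells express, was higher in BM libraries by a small margin (-1.07 ± 0.08), a call that is lost under upper-quartile or total-count scaling.

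Chemokine ligands were mostly higher in ATM libraries, whereas chemokine receptors were split between the tissues. Which cells of the ATM libraries gave the ligand RNA, macrophages or others, was not tested. Of 16 ligands 14 were higher in ATM libraries and none higher in BM libraries, with a median of 5.69. Of 10 receptors 4 were higher in ATM and 5 in BM libraries, with a median of -1.08. Cxcl1, a ligand of the neutrophil receptor CXCR2, lay at 562, 528 and 565 CPM in ATM libraries and at 0.106, 0.122 and 0 CPM in BM libraries (12.69 ± 0.16). Its receptor Cxcr2 had the opposite order, with 4.63, 2.21 and 1.77 CPM in ATM libraries and 459.6, 434 and 441 CPM in BM libraries (-7.30 ± 0.21). The monocyte chemoattractant Ccl2 lay at 321, 298 and 310.0 CPM and 2.04, 1.46 and 1.71 CPM in ATM and BM libraries (7.46 ± 0.10), and its receptor Ccr2 at 57.9, 58.7 and 69.8 CPM and 317, 252 and 261 CPM (-2.16 ± 0.10). For both pairs the ligand was higher in every ATM library and the receptor in every BM library. Cxcl12, which holds stem cells in the marrow, was higher in ATM libraries (1.96 ± 0.05), and its receptor Cxcr4 higher in BM libraries (-3.21 ± 0.10). Cxcl10 (8.46 ± 0.11) and its receptor Cxcr3 (1.16 ± 0.17) were both higher in ATM libraries. Ccr7, the receptor of migrating dendritic cells and T cells, had the largest difference of the receptors higher in ATM libraries (4.02 ± 0.06). The ligands Ccl6 (0.48 ± 0.06) and Ccl9 (0.68 ± 0.06) were not called.

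**Figure D2:**
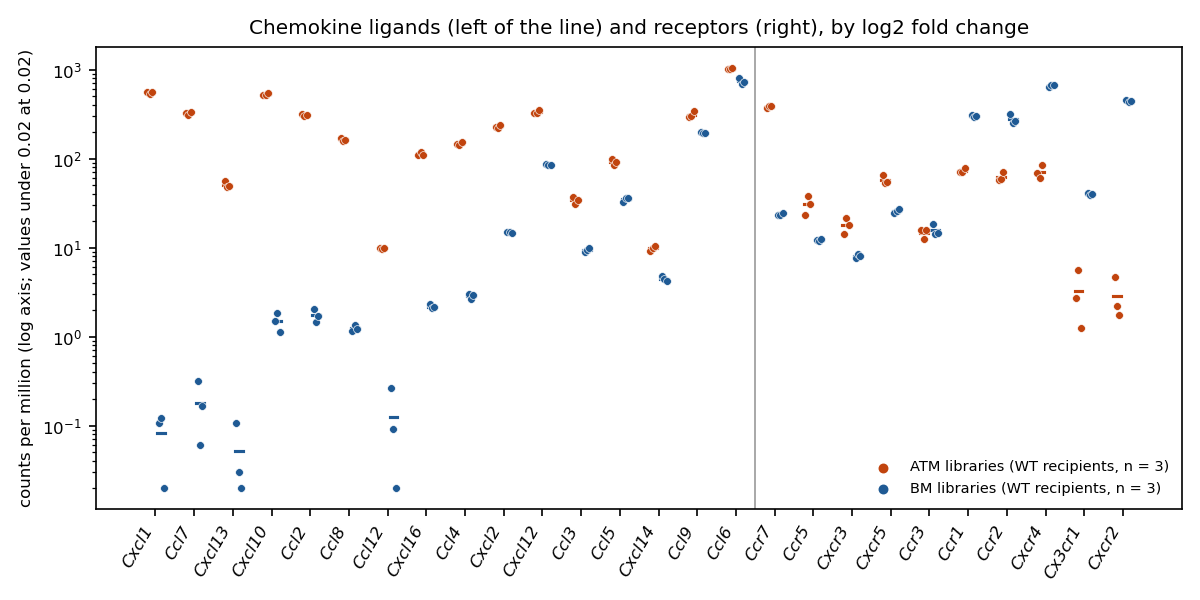
CPM on a log axis in the 3 ATM and 3 BM libraries of WT recipients (points, group mean as a bar) for 16 chemokine ligands (left of the line) and 10 chemokine receptors (right), each set ordered by its log2 fold change. Of the ligands 14 were called higher in the ATM libraries and Ccl6 and Ccl9 were not called, while Ccr1, Ccr2, Cxcr4, Cx3cr1 and Cxcr2 are higher in the BM libraries.

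Of 24 cytokine and cytokine receptor genes 11 were higher in ATM and 5 higher in BM libraries, and the median was 0.44, against -0.01 for all genes. Il6 lay at 258, 249 and 269 CPM in ATM libraries and 0.927, 0.944 and 1.32 CPM in BM libraries (7.94 ± 0.11), and Csf1, the ligand of CSF1R, at 359, 391 and 336 CPM and 19.7, 20.9 and 19.1 CPM (4.18 ± 0.07). The granulocyte colony-stimulating factor receptor Csf3r (-4.11 ± 0.05) and Tgfb1 (-2.31 ± 0.08) were higher in BM libraries. Il1b was not called, with -0.81 ± 0.07. The cells that gave the Il6 and Csf1 RNA were not tested either.

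The study treats obese mice with an antibody to IL-17A and an agonist of the GLP-1 receptor, so the levels of that axis in lean tissue were read separately. Il17a had 25, 45 and 21 counts in the ATM libraries and 0 in each BM library, at least 11.5-fold higher in ATM libraries when 3 counts per library are taken as the floor. The receptor chain Il17ra was higher in marrow, at 129, 135 and 123 CPM in ATM and 333, 349.6 and 347 CPM in BM libraries (-1.41 ± 0.05). Its partner Il17rc was among 7 members of this axis in the ATM table alone, at a mean of 37.3 CPM, and the adaptor Traf3ip2 (ACT1) was higher in ATM libraries (1.62 ± 0.12). Glp1r was not analysed here. In all, 3 of 7 tested members were higher in ATM and 1 higher in BM libraries.

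Of 23 genes of the SHP2, RAS and ERK pathway 7 were higher in ATM and 2 higher in BM libraries, with a median of 0.12. Ptpn11 itself lay at 87.8, 87.5 and 57.6 CPM in ATM libraries and 104, 106 and 108 CPM in BM libraries and was not called (-0.45 ± 0.14), and these counts do not separate the mutant from the normal allele. The called members that were higher in ATM libraries included the feedback phosphatases Dusp4 (5.10 ± 0.22), Dusp5 (4.64 ± 0.07) and Dusp6 (1.15 ± 0.06), which are induced by ERK, and the feedback inhibitor Spry1 (4.88 ± 0.20). The adaptor Grb2 (-1.57 ± 0.05) and the ubiquitin ligase Cbl (-1.26 ± 0.25) were higher in BM libraries, and the call of Cbl was lost without ATM_WT replicate 3 (-0.98). The kinase Mapk3 (ERK1) was not called, at -0.69 ± 0.05.

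Heme synthesis was split within its pathway. The route starts with ALAS and ends with ferrochelatase (FECH), and its product serves hemoglobin in red cell precursors and cytochromes elsewhere. Of the 8 enzymes reported 5 were higher in BM libraries and 2 in ATM libraries, and of 3 carriers 2 were higher in BM libraries. Cpox, the coproporphyrinogen oxidase, lay at 23.9, 26.8 and 24.2 CPM in ATM and 186, 175 and 176 CPM in BM libraries (-2.84 ± 0.07). The erythroid form of the first enzyme and the last enzyme went the other way. Alas2, the erythroid form of the rate-limiting enzyme, lay at 4322, 4468 and 4542 CPM in ATM libraries and 328, 344 and 343 CPM in BM libraries (3.72 ± 0.04). Fech lay at 587, 597 and 607 CPM and 145, 149 and 152 CPM in ATM and BM libraries (2.01 ± 0.04). The ubiquitous form Alas1 was higher in BM libraries (-1.24 ± 0.07), and Alad was not called (-0.42 ± 0.09). All 15 tested erythroid genes were higher in BM libraries, with a median of -4.33, among them Klf1, the erythroid transcription factor, at 0.731, 0.642 and 0.995 CPM in ATM and 66.2, 70.4 and 69.9 CPM in BM libraries, and the anion exchanger Slc4a1 (-4.33 ± 0.15). The globin genes were not analysed here.

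**Figure D3:**
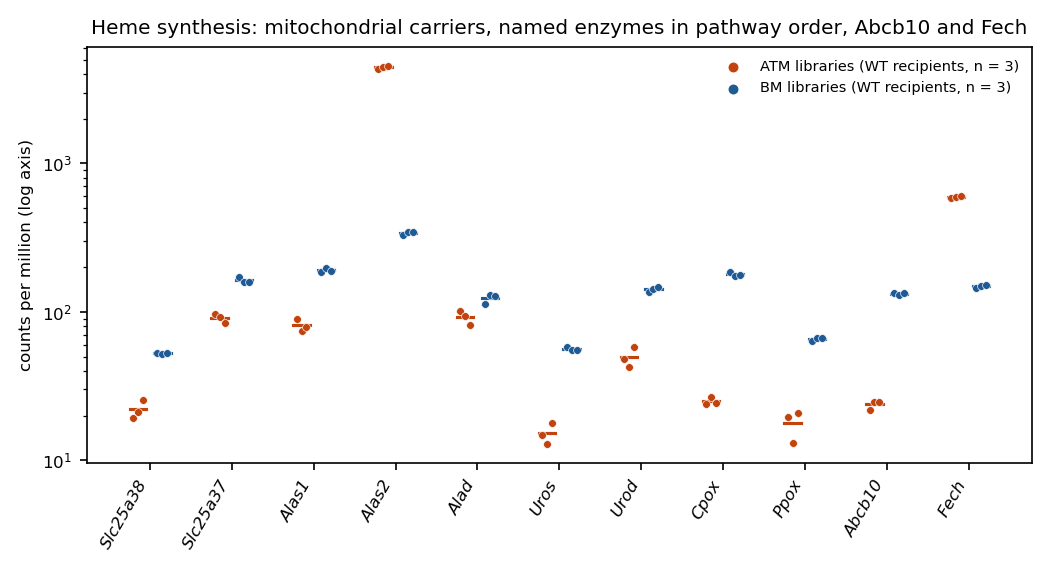
CPM on a log axis in the 3 ATM and 3 BM libraries of WT recipients (points, group mean as a bar) for 11 genes of heme synthesis: 2 mitochondrial carriers, named enzymes in pathway order, and Abcb10 before Fech at the right. Alas2 and Fech are the genes that are higher in the ATM libraries, at 4322 to 4542 CPM and 587 to 607 CPM.

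Genes that handle iron and heme were mixed, with 7 of 16 higher in ATM and 4 higher in BM libraries. The ferritin chains Ftl1 (1.39 ± 0.06) and Fth1 (1.25 ± 0.05), transferrin Trf (3.21 ± 0.05) and ceruloplasmin Cp (6.56 ± 0.07) were higher in ATM libraries. The transferrin receptor Tfrc lay at 55.5, 45.1 and 53.05 CPM in ATM and 395, 312 and 309.8 CPM in BM libraries (-2.73 ± 0.11), and the iron exporter Slc40a1 (ferroportin) at 42.5, 41.95 and 44.6 CPM and 289, 259.7 and 255 CPM (-2.64 ± 0.07). Spic, the factor of iron-recycling macrophages, was also higher in BM libraries (-1.51 ± 0.27). Hmox1, which degrades heme, was not called at 0.95 ± 0.05 but passed the limit under upper-quartile or total-count scaling.

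Of 16 genes of cholesterol efflux and the LXR and PPAR receptors 6 were higher in ATM and 2 higher in BM libraries. The transporter Abca1 lay at 136, 139 and 132 CPM in ATM and 18.9, 16.1 and 15.4 CPM in BM libraries (3.01 ± 0.09), while its relative Abcg1 was not called (0.20 ± 0.08). Pparg (2.65 ± 0.14) was higher in ATM libraries and Ppard (-2.51 ± 0.20) in BM libraries. Fatty acid oxidation differed little, with 2 of 17 members higher in ATM libraries, Acaa2 and Eci1, and 1, Acads, higher in BM libraries (-1.07 ± 0.10), a call lost under upper-quartile or total-count scaling and without ATM_WT replicate 1 (-0.99). Of 19 genes of glucose uptake and glycolysis 6 were higher in BM and 3 in ATM libraries. Hk3, the hexokinase of granulocytes, differed most (-3.71 ± 0.07), followed by Pgk1 (-2.22 ± 0.08), and the glucose transporter Slc2a1 was higher in ATM libraries (2.17 ± 0.08).

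Neutrophil genes were higher in marrow. All 18 tested genes of late granules and mature neutrophils were higher in BM libraries (against 23.9% of all genes), with a median of -7.33. Their summed level was 127287 to 134645 CPM in the BM libraries and 1429 to 1464 CPM in the ATM libraries. S100a9 (chr3:90692632-90695721, GRCm38), a calcium-binding protein of neutrophils, lay at 70.6, 60.9 and 56.5 CPM in the ATM libraries and 51217, 50003 and 50756 CPM in the BM libraries (-9.66 ± 0.09). S100a8, its partner, lay at 67.9, 67.1 and 62.5 CPM and 29989, 20733 and 23311 CPM (-8.55 ± 0.16), with BM_WT replicate 1 the highest. Camp, the cathelicidin precursor, lay at 4.91, 3.92 and 4.09 CPM in ATM and 8258, 8604 and 8761 CPM in BM libraries. No ATM library came near a BM library for these 3 genes. Of 11 genes of primary granules, which are filled at the promyelocyte stage, 8 were higher in BM libraries and 1 in ATM libraries. Mpo, the myeloperoxidase, lay at 2.40, 2.57 and 3.39 CPM in ATM libraries and 2585, 2939 and 2814 CPM in BM libraries (-9.96 ± 0.11). Elane (-10.24 ± 0.11) and Ctsg (-10.17 ± 0.14) followed, while Ctsc, the lysosomal protease that activates them, was higher in ATM libraries (1.41 ± 0.05).

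Other marrow lineages followed. Of 11 tested B cell genes 9 were higher in BM libraries (median -2.27), with Cd79b at -3.44 ± 0.08 and Pax5 at -4.28 ± 0.18, and the genes of early B cells, Rag1, Dntt, Igll1, Vpreb1 and Rag2, were in the BM table alone. Ebf1, which preadipocytes also express, was higher in ATM libraries (1.13 ± 0.07). Of 11 tested megakaryocyte genes 7 were higher in BM libraries, and Vwf, which endothelium expresses, was higher in ATM libraries (4.33 ± 0.08). Stem and progenitor genes were divided, with 7 of 18 higher in ATM and 8 higher in BM libraries. Myb (-5.57 ± 0.20), Tal1 (-5.48 ± 0.14) and Lmo2 (-1.65 ± 0.07) were higher in BM libraries. Cd34 lay at 575, 549 and 587 CPM in ATM and 41.3, 39.2 and 41.1 CPM in BM libraries (3.81 ± 0.05), and Ly6a (Sca-1) at 678, 685 and 706 CPM and 31.7, 32.5 and 34.6 CPM (4.39 ± 0.05). Endothelial and stromal cells of fat also express Cd34 and Ly6a.

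Granulocytes other than neutrophils were separated by lineage. The mast cell proteases Tpsb2, Cma1 and Mcpt4 were higher in ATM libraries, with Tpsb2 at 81.2, 92.1 and 85.5 CPM in ATM and 0, 0 and 0.132 CPM in BM libraries and Cma1 at 64.9, 63.2 and 63 CPM and 0.397, 0.457 and 0.296 CPM. Cpa3, the carboxypeptidase of mast cells and basophils, was not called (0.11 ± 0.08). The basophil protease Mcpt8 lay at 0.162, 0.357 and 0.0737 CPM in ATM and 263, 297 and 295 CPM in BM libraries (-10.44 ± 0.18), and the eosinophil granule protein Prg2 at 4.83, 4.25 and 5.46 CPM and 888, 928 and 943 CPM (-7.57 ± 0.08). Siglecf, a surface marker of eosinophils, was not called (-0.45 ± 0.13).

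Of 18 T and NK cell genes 8 were higher in ATM libraries and 1, Ncr1, higher in BM libraries, with a median of 0.50. Cd3e lay at 74.8, 79.7 and 83.3 CPM in ATM and 8.69, 8.31 and 8.60 CPM in BM libraries (3.22 ± 0.09), while Cd3d was not called (0.10 ± 0.12). Gata3 had the largest difference of the list (6.98 ± 0.09), and whether T cells gave this RNA was not tested. Of 15 dendritic cell genes 9 were higher in ATM libraries, with Zbtb46 at 2.22 ± 0.13, and 4 higher in BM libraries, Siglech, Flt3, Irf8 and Sirpa. Under total-count scaling Irf8 (-1.10 ± 0.06) and Sirpa (-1.03 ± 0.05) lost their calls, Sirpa also under upper-quartile scaling and without ATM_WT replicate 3 (-0.99). Among 8 plasma cell genes Jchain (-1.22 ± 0.05) and Mzb1 (-2.47 ± 0.10) were higher in BM libraries, and 3 members, Prdm1, Sdc1 and Derl3, were higher in ATM libraries. For Mzb1 57.2% of the annotated exon length lies in other gene models too.

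The members of the lists with at least 4 tested genes are set side by side in the plot of log2 fold changes by list. The sex-linked genes and the lineage transcription factors were left out of it.

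**Figure D4:**
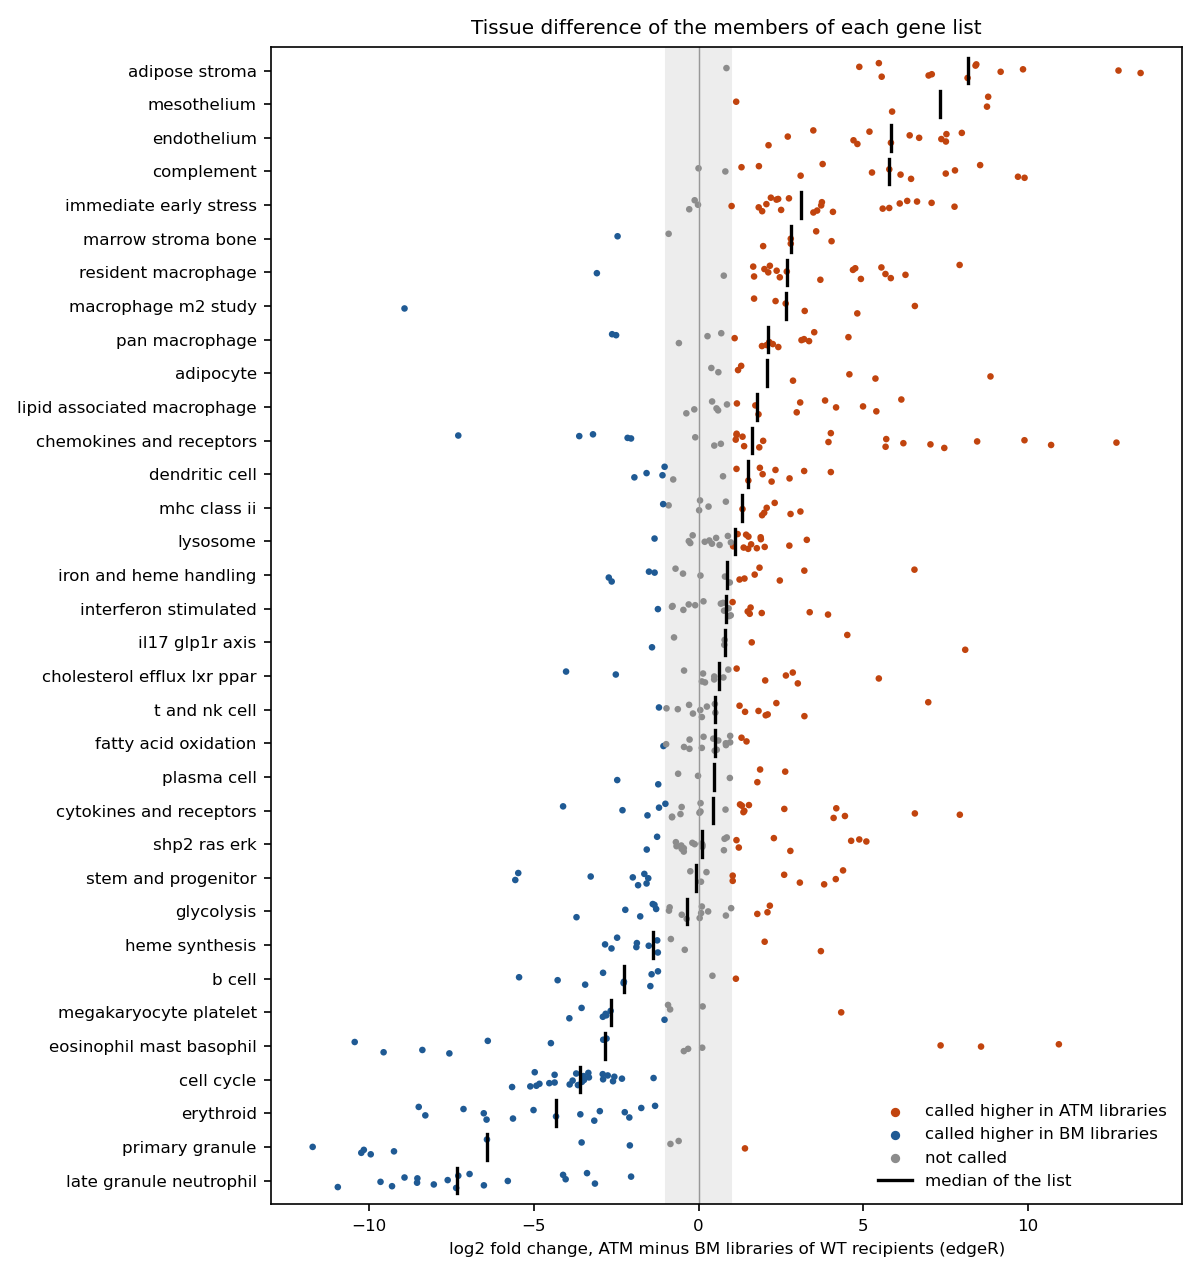
Log2 fold change (ATM minus BM libraries of WT recipients) of every tested member (points) of each gene list shown, ordered by list median (black bar). Red points were called higher in ATM libraries, blue points higher in BM libraries and grey points were not called, and the shaded band spans -1 to 1. Lists of stroma, mesothelium, endothelium and complement lie at the top, with medians of 8.17, 7.32, 5.84 and 5.79, and late granule genes at the bottom, with a median of -7.33.

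Cell division genes were higher in marrow. All 24 members were called higher in BM libraries, with a median of -3.60, a summed level of 525 to 535 CPM in the ATM libraries and 5651 to 5844 CPM in the BM libraries. Mki67, the proliferation marker Ki-67, lay at 11.7, 9.95 and 8.22 CPM in ATM libraries and 491, 502 and 519 CPM in BM libraries (-5.66 ± 0.10). Top2a, the topoisomerase of S phase and mitosis, lay at 18.1, 20.8 and 16.5 CPM and 647, 628 and 641 CPM (-5.11 ± 0.08). The 6 MCM helicase subunits, which license replication, had a median of -2.73, and the other 18 genes, mostly of mitosis, one of -3.87. The smallest difference was that of Mcm4 (-1.37 ± 0.06). The promoters of such genes are known for CCAAT boxes and for the cell cycle homology region (CHR), through which the DREAM complex silences them in resting cells. In the 250 bases before the RefSeq start site, searched on both strands, 18 of 20 matched members held CCAAT (90%, against 34.5% of 27018 mouse promoters) and 6 of 20 held the CHR letters TTTGAA (30%, against 16.3%). Ccna2, Aurkb, Mcm4 and Foxm1 were not matched. The 2 promoters below were picked from the members that hold the CHR letters, so that they hold them is no result. Both belong to division genes whose levels are given above, and both also hold CCAAT. The motifs are in capitals, as CCAAT or on the other strand ATTGG, and as TTTGAA or on the other strand TTCAAA. Each promoter is from build GRCm38.p6 and read on the minus strand.
Top2a chr11:99024190-99024439: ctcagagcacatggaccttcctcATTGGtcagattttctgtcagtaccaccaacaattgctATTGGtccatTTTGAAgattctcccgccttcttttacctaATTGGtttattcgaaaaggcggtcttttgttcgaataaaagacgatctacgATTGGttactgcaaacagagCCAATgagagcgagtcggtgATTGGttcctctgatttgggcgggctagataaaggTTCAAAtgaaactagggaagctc
Mki67 chr7:135716380-135716629: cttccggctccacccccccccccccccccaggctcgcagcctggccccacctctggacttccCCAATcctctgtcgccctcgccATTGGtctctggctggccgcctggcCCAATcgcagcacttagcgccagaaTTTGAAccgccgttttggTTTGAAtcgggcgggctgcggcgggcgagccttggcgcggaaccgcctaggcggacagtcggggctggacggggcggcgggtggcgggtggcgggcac
These matches describe the letters and do not show that a factor binds there.

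Immediate-early and stress genes, which cells switch on within minutes of a signal and also during tissue dissociation, were higher in ATM libraries. Of 24 members 21 were called higher in ATM libraries, none higher in BM libraries, and the median was 3.12. Fos lay at 4236, 4264 and 4338 CPM in the ATM libraries and 389, 382 and 374 CPM in the BM libraries (3.49 ± 0.04). Egr1 lay at 6226, 6253 and 6364 CPM and 134, 127 and 129 CPM in ATM and BM libraries (5.59 ± 0.04). The stress factor Atf3 had the largest difference of the list, at 1772, 1777 and 1798 CPM in ATM and 7.65, 8.28 and 8.53 CPM in BM libraries (7.77 ± 0.06). Libraries of each tissue lay close together for these genes, and no ATM library overlapped with a BM library. The heat shock genes Hspa1a (6.64 ± 0.08) and Hspa1b (6.34 ± 0.06), near-identical copies whose reads can be shared, were also higher in ATM libraries, while the constitutive chaperone Hspa8 was not called (-0.12 ± 0.04). Jund (-0.28 ± 0.06) and Ier5 (-0.02 ± 0.05) were not called either. Only the ATM cells are stated to have been sorted, so that tissue and handling cannot be told apart for these genes. Dusp1, a phosphatase of MAP kinases that belongs to the group, lay at 3470, 3554 and 3554 CPM in ATM and 271, 259 and 259 CPM in BM libraries (3.75 ± 0.04). Its promoter is one of 2 of 20 matched members (10%, against 1.62% of all promoters) with the cAMP response element TGACGTCA, shown in capitals and read on the minus strand of GRCm38.p6.
Dusp1 chr17:26508473-26508722: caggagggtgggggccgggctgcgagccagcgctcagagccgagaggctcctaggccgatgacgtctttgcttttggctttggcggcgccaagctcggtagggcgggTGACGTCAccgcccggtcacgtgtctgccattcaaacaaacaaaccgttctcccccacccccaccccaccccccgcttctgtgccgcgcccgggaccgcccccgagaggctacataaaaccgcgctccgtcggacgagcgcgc
The other is Btg2, and Egr1, Egr3, Ier2 and Hspa8 were not matched. No member held the AP-1 letters TGANTCA in this window (6.87% of all promoters did).

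Of 20 interferon-stimulated genes 7 were higher in ATM libraries and 1, Mx1, higher in BM libraries, with a median of 0.84. Ifit1 lay at 157, 171 and 165 CPM in ATM and 12.3, 8.95 and 10.9 CPM in BM libraries (3.93 ± 0.11), and Rsad2 differed by 1.49 ± 0.06. Of 39 lineage transcription factors 19 were higher in ATM and 14 higher in BM libraries. Spi1 (PU.1), the myeloid master regulator, lay at 62.6, 60.9 and 62.3 CPM in ATM and 317, 344 and 334 CPM in BM libraries (-2.42 ± 0.05). Cebpe, the factor of late granules, differed by -8.54 ± 0.12. Id3 (5.08 ± 0.06), Bhlhe40 (5.31 ± 0.06) and Myc (3.46 ± 0.06) were higher in ATM libraries. Cebpb was uneven among ATM libraries, at 392, 268 and 77.7 CPM against 91.1, 113 and 92.2 CPM in BM libraries, and was not called (1.31 ± 0.63, adjusted p = 0.11 in edgeR).

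The 7 genes listed for M2-like macrophages were taken from those the study names, for these libraries or, for Mrc1 (CD206), for flow cytometry, and are no independent evidence of a direction. Of them 6 were higher in ATM libraries, among them Arg1 at 11.9, 13.3 and 9.77 CPM in ATM and 0.318, 0.335 and 0.593 CPM in BM libraries (4.82 ± 0.29) and Cd274 (PD-L1) at 3.22 ± 0.12. Chil3 (Ym1), which immature neutrophils of the marrow also express, was higher in BM libraries, at 8.85, 12.6 and 7.82 CPM in ATM and 4822, 4765 and 4744 CPM in BM libraries (-8.93 ± 0.15).

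By size alone, the 10 largest differences in favour of ATM libraries, where the libraries did not overlap and averaged 100 counts or more, included the collagen gene Col3a1 and the proteoglycan gene Dcn. Medag, an adipocyte differentiation gene, lay at 85.01, 81.6 and 74.5 CPM in ATM libraries and had no count in any BM library, at least 814-fold higher. Flrt2 had 2 counts over the BM libraries, and the ratio of its levels was 7423 with a 95% counting interval of 2054 to 61299. Col3a1 (13.43 ± 0.16), Akr1b7 (13.33 ± 0.09), the matrix-associated Aebp1 (12.97 ± 0.08), Dcn (12.75 ± 0.09), Cxcl1, Cyr61 (12.51 ± 0.10), Efemp1 (12.38 ± 0.13) and Adamts1 (11.92 ± 0.17) complete the set. On the marrow side these were Ms4a3 (-11.72 ± 0.20), Camp (-10.96 ± 0.08), Mcpt8, Elane, Fcnb (-10.24 ± 0.25), Ctsg, Mpo, Kif14, Itgb2l (-9.81 ± 0.20) and S100a9, of which most are granulocyte genes and Kif14 is a mitotic kinesin. Among symbols in both tables, the 5 genes with the highest CPM in ATM libraries were Akr1b7, Gsn, Lars2, Dcn and Cd74, and those of the BM libraries were S100a9, S100a8, Ngp, Lyz2 and Rn45s.

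Symbols of a single table have no tested fold change. Genes with few counts are absent from each table, but the filter is not stated, so a symbol's absence gives no level for that tissue. The ATM table alone held 3983 symbols with 5.68% to 5.74% of the counts of the ATM_WT libraries, and the BM table alone held 277 with 0.073% to 0.075%. The most counted in the ATM table were 9530053A07Rik (mean 7992 CPM), Crisp1, the prostate transglutaminase Tgm4 (2540 CPM), Retnla (2077 CPM), a secreted product of alternatively activated macrophages and adipose tissue, and the matrix protein Fbln2 (1348 CPM). They were followed by Serpina1f, C7, Pbsn, Has1 and Cav1, at 814 to 1286 CPM. The BM table alone was led by the recombinase Rag1 (141 CPM), the terminal transferase Dntt (76.6 CPM) and the surrogate light chain genes Igll1 (54.1 CPM) and Vpreb1 (49.96 CPM).

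A last contrast asked whether the tissue difference was of the same size in obese mice. It compared ATM minus BM of the Vehicle groups with ATM minus BM of the WT groups, over 12 libraries with 3 in each group, with CPM scaled over those 12. Of 13062 genes tested 3598 (27.5%) were called, 1519 (11.6%) with a difference that was more positive in Vehicle recipients and 2079 (15.9%) with one that was more negative. With library totals as the scale these counts were 930 and 3253, and the median of all genes moved by -0.37, so directions near 0 depend on the scaling. The groups also differ in sex-linked RNA. Xist, the RNA of the inactive X chromosome of females, had 12, 8 and 24 counts in ATM_WT and 3, 0 and 2 in BM_WT, but 747, 830 and 1024 in ATM_Vehicle and 5804, 6250 and 5284 in BM_Vehicle. The Y-linked Ddx3y had 3163, 3496 and 3451 counts in ATM_WT and 402, 351 and 165 in ATM_Vehicle, with 1437 to 1942 in BM_WT and 579 to 655 in BM_Vehicle. The Vehicle groups were also given vehicle for 30 days, whereas no treatment is stated for the WT groups. Recipient type, obesity, vehicle treatment and this difference in sex-linked RNA cannot be told apart in the contrast.

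Neutrophil genes separated the tissues less in obese mice. Of 18 late granule genes 17 had a positive difference, with a median of 5.43 against -0.06 for all genes. The mean level of S100a9 in the ATM libraries was 56.5 CPM in WT and 6479 CPM in Vehicle recipients, and 45120 CPM and 50462 CPM in the BM libraries, so that the log2 tissue difference went from -9.64 to -2.96 (difference 6.68 ± 0.09). Ngp, a cathelicidin-like granule protein, had 22.3 CPM and 2617 CPM in the ATM libraries of WT and Vehicle recipients (difference 6.00 ± 0.06). In both genes the change lay mostly in the ATM libraries. Of 13 endothelial genes 10 had a positive and 1 a negative difference. Gpihbp1, the capillary anchor of lipoprotein lipase, lay at 74 CPM and 636 CPM in ATM libraries of WT and Vehicle recipients (4.38 ± 0.40). Of 16 lipid-associated genes 10 had a positive and 2 a negative difference. Spp1 (1.48 ± 0.11), Cd9 (1.64 ± 0.07) and Trem2 (2.65 ± 0.20) were among the positive ones.

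Resident macrophage genes went the other way, with 11 of 19 negative and 1 positive. So did the 16 macrophage genes shared with most tissues, with 7 negative, none positive and a median of -0.95. In this shared list Adgre1 lay at 211 CPM in ATM_WT and 43.2 CPM in ATM_Vehicle (-1.48 ± 0.21), and Csf1r at 555 CPM and 48.6 CPM (-3.53 ± 0.13). Cd68, of the same list, was not called (0.62 ± 0.08). For MHC class II 10 of 13 members were negative and 1 positive, with Cd74 at 6899 CPM and 1397 CPM in ATM libraries (-1.92 ± 0.07). For complement 10 of 16 were negative and 1 positive, with C3 at -2.41 ± 0.06. The stromal list had 7 of 13 negative, and Dcn lay at 8399 CPM in ATM_WT and 2616 CPM in ATM_Vehicle. Alas2 kept its direction and had a larger tissue difference in obese mice, 5.41 against 3.73, while that of Fech was 2.02 in both groups.

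**Figure D5:**
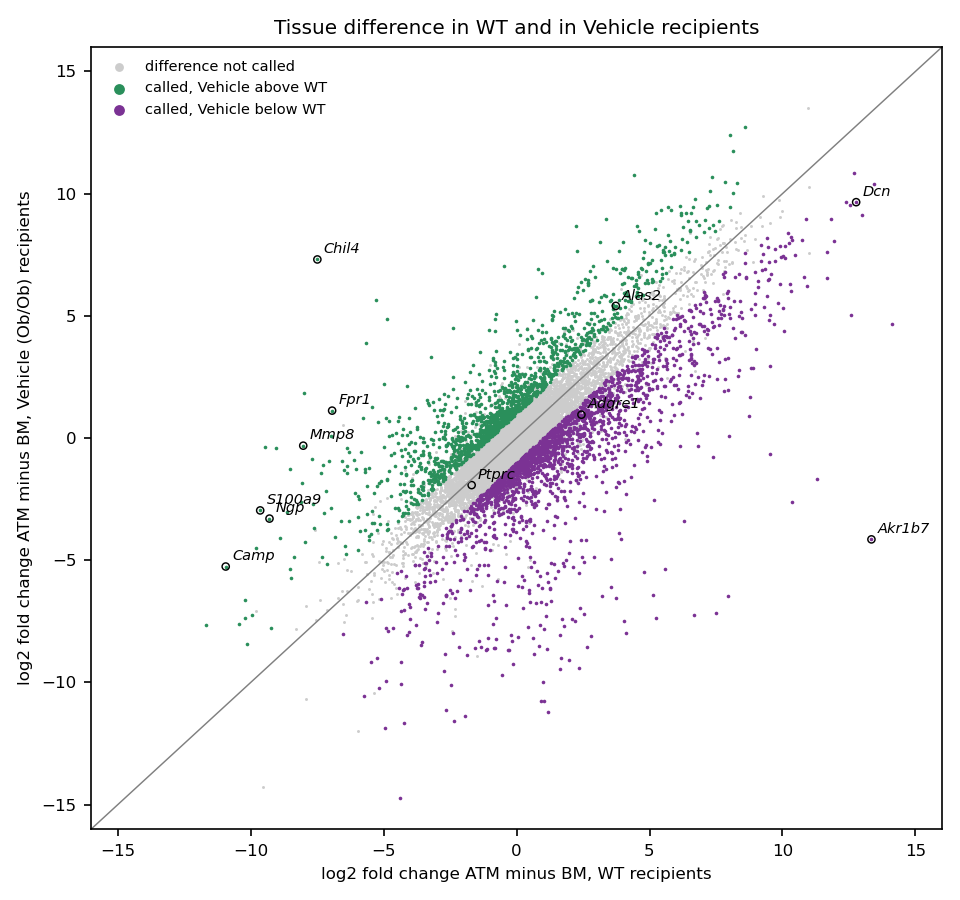
Log2 fold change of ATM minus BM libraries in WT recipients (horizontal) and in Vehicle-treated Ob/Ob recipients (vertical) for 13062 genes, with the line of equal values. Green genes were called more positive and purple genes more negative in Vehicle recipients, and grey genes were not called. S100a9, Ngp and Camp lie above the line on the left, Akr1b7 far below it on the right.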

How the data were processed

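RNA-seq counts of 6 libraries of WT recipients (3 ATM, 3 BM) were analysed, with 6 Vehicle libraries for 1 contrast. Per the study's methods, reads were mapped by the authors (STAR 2.7.2a, mm10) and counted on GENCODE M22 genes with featureCounts 2.0.1, without strand and with reads that overlap several genes counted for each of them. The deposited values are raw counts, in 1 table per tissue, from which genes with low totals are absent (smallest gene total over 15 libraries 54 and 55). All columns were mapped to samples by the labels (0 left unmapped).

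Symbols of both tables were joined, and of 13076 shared symbols 80 were removed by filterByExpr. Groups were compared in R 4.3.3 with edgeR 4.0.16 (TMM scaling, robust quasi-likelihood fit, 2-sided test, Benjamini-Hochberg adjustment over 12996 genes). Calls needed an adjusted p below 0.05 and a log2 fold change beyond 1 in either direction. Standard errors of fold changes come from each gene's quasi-likelihood F. For a group without counts, 3 counts per library served as the floor, and counting intervals (95%) cover counting error only. The tissues were deposited as separate tables, and the effect of any separate handling cannot be told apart from tissue. The code was tested on simulated data first.

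Gene lists (39, with 665 entries) and the members of the comparison were chosen with earlier results of these data known, so lists are given by counts and medians, with no test. Named genes are the 10 largest differences on each side (mean of at least 100 counts, no overlap), the 5 with the highest CPM per tissue, up to 6 members per list with the highest CPM and called members against their list's direction, the label check genes and the genes of the model and treatments, the 5 largest differences of each sign between WT and Vehicle, and the 10 most counted symbols of each table alone. Some members that the rule names are not reported here. Other members named in the text were chosen after their values were seen. Coordinates and shared exon lengths are from GENCODE M21 and promoters from RefSeq, both GRCm38. The alternatives were other scaling factors, DESeq2 1.42.0, limma-voom (limma 3.58.1), other filters, a test against a fold limit, a fit of all 30 libraries, a replicate block and leaving out each library.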

Additional observations from a re-analysis of the deposited data

Results flagged for a closer look

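The tissue difference of 10 genes named by rank differed between Vehicle and WT recipients by edgeR's test of the difference itself. Each value is the Vehicle minus the WT log2 tissue difference, and means are CPM ± SD over 3 libraries. A fitted difference that involves a group without counts depends on the prior count and is no bound.

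The 5 most positive were as follows. Chil4 (Ym2, a chitinase-like protein) had a difference of 14.80 ± 0.59, with no count in ATM_WT libraries and 249 ± 2.27 CPM in ATM_Vehicle. For Tmem132e the difference was 9.77 ± 0.82, with 0.231 ± 0.283 CPM in ATM_WT and 16.7 ± 3.37 CPM in ATM_Vehicle. Sh2d5 had 9.54 ± 0.50, with 0.193 ± 0.335 CPM and 190.1 ± 16.03 CPM. The formyl peptide receptor Fpr1 had 8.06 ± 0.10, with 1.20 ± 0.22 CPM in ATM_WT and 326 ± 6.41 CPM in ATM_Vehicle, against 149 and 149.8 CPM in the 2 BM groups. The neutrophil collagenase Mmp8 had 7.71 ± 0.25, with 4.44 ± 2.11 CPM and 577 ± 15.1 CPM in ATM_WT and ATM_Vehicle.

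The 5 most negative were led by Akr1b7, with -17.49 ± 0.49. It lay at 13149 ± 84.6 CPM in ATM_WT and at 0.046 ± 0.0797 CPM in ATM_Vehicle. The others had no count in ATM_Vehicle libraries. These were Pkhd1l1 (-12.38 ± 0.60, 33.4 ± 7.39 CPM in ATM_WT), Ggnbp1 (-12.11 ± 0.66, 14.5 ± 0.789 CPM), Stag3 (-11.79 ± 0.60, 8.63 ± 0.429 CPM) and Sec16b (-11.74 ± 0.66, 14.1 ± 1.65 CPM). Xist and Y-linked RNA differ between the WT and Vehicle libraries, as given with the contrast, and their part in these differences was not tested.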

How the results depend on the processing

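No call of 285 named genes reversed under 17 alternative settings, although 6 genes that were not called changed sign in at least 1 of them, and 4713 of their values stayed on the same side of the threshold, while 49 lost and 54 gained a call. Without the fold-change limit, 10544 genes passed in the WT comparison, 5263 higher in ATM and 5281 higher in BM libraries. With library totals as the only scaling, the contrast of Vehicle and WT gave 930 positive and 3253 negative genes. Other settings kept the counts within 1.5 times, with 3469 and 3073 genes higher in ATM and BM libraries by DESeq2 and 3022 and 2533 in the test against the fold limit. Leaving out each library in turn gave 6495 to 6634 genes in total, 3425 to 3481 higher in ATM and 3046 to 3153 higher in BM libraries, and 3352 to 3875 genes in the contrast with Vehicle, 1444 to 1591 positive and 1904 to 2286 negative. ATM and BM libraries of the same replicate number had correlations of deviations from -0.021 to 0.008, against -0.009 to 0.021 for other pairs. Such values cannot tell whether the same mice gave both tissues. The fit with the replicate block called 3432 and 3119 genes in the WT comparison and 1491 and 2046 in the contrast with Vehicle. No named gene changed its call there. The median of the stem and progenitor list changed sign in 4 settings and that of the pancreatic list in 2. Low counts limit Il17a and the megakaryocyte genes.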
